A study of Mus musculus with 6 samples.

Results

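The genes of the Hedgehog signalling pathway were followed in bone cells of C57BL/6 mice, in 3 libraries of a control group and 3 of a group treated with dexamethasone, a synthetic glucocorticoid hormone. The 9 genes were the rows whose Ensembl identifier maps to the symbols Ihh, Ptch1, Hhip, Boc, Smo, Sufu, Gli1, Gli2 or Gli3, out of 29616 genes listed. Of the 9 genes, 6 averaged at least 10 normalized counts (reads divided by a size factor of the library) and were tested among 17442 genes, and Ihh, Hhip and Gli2 stayed under that minimum. In the paper's methods the mice were 8 weeks of age at the start and dexamethasone was given daily at 0.08 µg per g of body weight over 4 weeks, and the control mice of its legends received saline. The labels name only bone cells, and by the paper these were sorted for Osteocalcin from bones freed of marrow. No transgene or Cre is named for these libraries. Whether a library came from 1 mouse or from a pool is not given in the sources used here, so the p-values measure only the spread between these libraries, which may be technical. Less RNA per cell and fewer cells of a type cannot be told apart in such bulk libraries.

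Hedgehog ligands are secreted proteins, and in growing bone Indian hedgehog (Ihh) is released by cartilage cells that are about to enlarge and directs neighbouring cells into the osteoblast lineage. Without ligand, the receptor Patched 1 holds the membrane protein Smoothened inactive, and the Gli transcription factors are kept in check by Sufu or cut into repressors at the primary cilium. Ligand binding to Patched 1 and its co-receptors releases Smoothened, and full-length Gli proteins then switch on target genes, among them Ptch1, Hhip and Gli1 themselves.

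With dexamethasone the receptor gene Ptch1 fell to 32.9% of its control level, and the co-receptor gene Boc fell to 65.6%. Gli1, which encodes a transcriptional activator, rose to 173% of control at a low level, and the inhibitor gene Sufu rose to 115%. The genes of the signal transducer Smoothened and of Gli3, the most abundant Gli transcript here, were at 103% and 104% of control and did not pass the test. Ptch1 was the 1 of the 6 tested genes called differentially expressed (limma, Benjamini-Hochberg adjusted p under 0.05 and at least 1 on the log2 scale in either direction), and it was lower, while 0 were called higher. Over all tested genes 10.6% were called lower and 11.7% higher. By the adjusted p alone, 2 of the 6 genes were lower and 2 higher, where 35.2% of all tested genes were lower and 37.2% higher. The values of the control and dexamethasone libraries did not overlap for 4 of the 6 genes, against 74.7% of all tested genes. The median log2 fold change of the 6 genes was 0.05, beside 0.00 for all tested genes, so as a list they did not move in 1 direction.

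**Figure D1:**
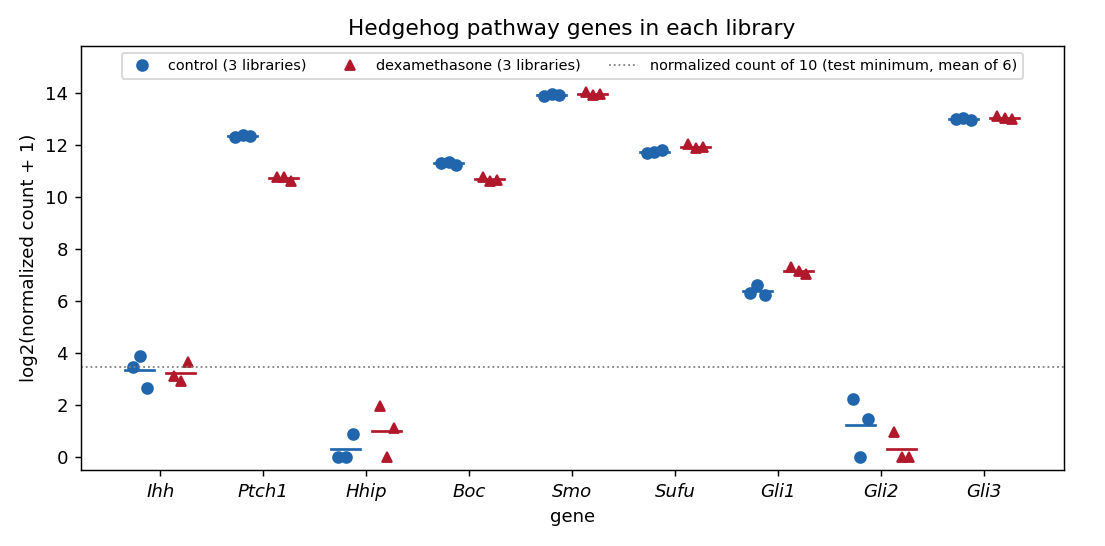
Each point is 1 library, 3 control (circles) and 3 dexamethasone (triangles), horizontal lines are group means, and the vertical axis is log2 of the normalized count plus 1. Ptch1 and Boc lie lower and Gli1 and Sufu higher in the dexamethasone libraries without overlap, Smo and Gli3 overlap, and Ihh, Hhip and Gli2 lie at or near the dotted line of 10 normalized counts or below it.

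Promoters of the tested genes are shown as a description of their letters, and no cause was tested with them. Of the genes printed, Ptch1 was lower and Sufu higher with dexamethasone, and Smo and Gli3 did not pass the test. The set of RefSeq promoters used here (GRCm38.p6, not the GRCm39 build of the counts) held a start site for 7 of the 9 genes. The 250 bases before the start are printed 5′ to 3′ on the gene's strand for the tested genes with an entry. Boc and Gli1 had no entry in this set, which does not mean that RefSeq lacks them. Capitals mark the GC box GGGCGG or CCGCCC, bound by Sp family factors, and the hexamer AGAACA or TGTTCT of the glucocorticoid response element. The Ptch1 window is chr13:63565736-63565985 on the minus strand, that of Smo is chr6:29735247-29735496 on the plus strand, that of Sufu is chr19:46396646-46396895 on the plus strand, and that of Gli3 is chr13:15463473-15463722 on the plus strand.
Ptch1: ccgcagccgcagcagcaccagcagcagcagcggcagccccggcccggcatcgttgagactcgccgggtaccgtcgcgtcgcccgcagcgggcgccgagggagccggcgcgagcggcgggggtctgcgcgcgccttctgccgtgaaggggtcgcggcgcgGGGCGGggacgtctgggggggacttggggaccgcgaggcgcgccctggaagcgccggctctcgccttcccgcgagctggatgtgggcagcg
Smo: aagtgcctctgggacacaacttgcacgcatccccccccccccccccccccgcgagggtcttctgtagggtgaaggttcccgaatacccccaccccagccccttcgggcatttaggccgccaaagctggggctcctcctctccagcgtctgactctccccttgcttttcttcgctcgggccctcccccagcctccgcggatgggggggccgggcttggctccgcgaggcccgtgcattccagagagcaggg
Sufu: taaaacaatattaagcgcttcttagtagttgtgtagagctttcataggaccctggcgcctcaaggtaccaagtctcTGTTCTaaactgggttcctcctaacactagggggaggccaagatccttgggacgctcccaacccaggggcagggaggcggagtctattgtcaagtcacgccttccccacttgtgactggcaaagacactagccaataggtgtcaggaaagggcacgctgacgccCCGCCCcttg
Gli3: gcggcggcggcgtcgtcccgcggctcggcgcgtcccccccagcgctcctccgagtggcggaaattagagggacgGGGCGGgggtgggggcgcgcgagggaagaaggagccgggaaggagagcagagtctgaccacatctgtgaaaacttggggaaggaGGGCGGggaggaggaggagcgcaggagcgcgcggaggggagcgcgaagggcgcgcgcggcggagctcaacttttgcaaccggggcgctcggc

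The Ptch1 window held 1 GC box, the Gli3 window held 2, the Sufu window held 1 and the Smo window held 0. The hexamer occurred in the Sufu window, 1 time as TGTTCT, and in none of the other 3. Over all 32851 RefSeq promoter windows of this length, 32.7% held a GC box and 16.1% the hexamer. The GLI-binding motif GACCACCCA (TGGGTGGTC on the other strand) was in 0 of the 7 windows of these genes and in 0.225% of all windows. No 2 matches in the printed windows overlapped. A match is a description of the letters, and a missing match says only that these letters are not in the window.

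Ihh, the ligand gene of endochondral bone, was almost silent. It had 10.1, 13.7 and 5.27 normalized counts in control libraries 1 to 3 and 7.63, 6.54 and 11.6 in dexamethasone libraries 1 to 3, from 31 and 24 reads in all. The groups overlapped (exact permutation test, two-sided, p = 0.8, where 3 libraries against 3 cannot go below 0.1). The other ligand genes gave no more than traces. Dhh (Desert hedgehog) had 2.75, 0.979 and 0.879 normalized counts in the control and 1.91, 1.09 and 0 in the dexamethasone libraries, and Shh (Sonic hedgehog) was not among the genes listed.

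Ptch1 encodes the receptor that holds Smoothened inactive and is itself a target of the pathway. Its normalized counts were 4994, 5314 and 5125 in control libraries 1 to 3 and 1741, 1755 and 1583 in dexamethasone libraries 1 to 3. The lowest control library was above the highest dexamethasone library, and the spread within each group was small beside the gap. The mean fell from 5144 ± 161 (SD, n = 3) to 1693 ± 95.7 (SD, n = 3), or -1.60 on the log2 scale (standard error 0.0446, 95% interval -1.70 to -1.51, limma adjusted p = 1.71e-20). Of all tested genes, 4.36% had a lower log2 fold change than Ptch1.

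Boc encodes a cell-surface co-receptor that binds Hedgehog ligand together with Patched 1. It had 2527, 2603 and 2415 normalized counts in the control libraries and 1746, 1575 and 1627 in the dexamethasone libraries, again without overlap. Its mean fell from 2515 ± 94.6 (SD, n = 3) to 1649 ± 87.5 (SD, n = 3), or -0.61 on the log2 scale (standard error 0.0476, 95% interval -0.71 to -0.51, limma adjusted p = 2.48e-11), under the fold required for a call. Hhip encodes a decoy that binds the ligands at the cell surface. Its transcript was at or under 3 reads in each of the 6 libraries, the limit that a count of 0 allows, with 0, 0 and 1 reads in the control and 3, 0 and 1 in the dexamethasone libraries, so a difference was not detectable at this depth.

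The genes of 2 further co-receptors, Cdon and Gas1, also fell, with 95% intervals of the fold change wholly below that of Boc. Cdon, the closest relative of Boc, had 20154, 21189.5 and 21016 normalized counts in the control libraries and 5156, 4762 and 4826 in the dexamethasone libraries, or -2.08 on the log2 scale (standard error 0.0375, limma adjusted p = 2.35e-24). Gas1, a membrane-anchored co-receptor, had 6273, 7181 and 6761 in the control and 2763, 2375 and 2427 in the dexamethasone libraries, or -1.42 on the log2 scale (standard error 0.0515, limma adjusted p = 4.57e-18). Both were called lower, and their groups did not overlap. In the GENCODE M21 annotation 19.9% of the exon bases of Gas1 lie under Gm48488 on the opposite strand, which had 77.1 normalized counts in the control and 38.1 in the dexamethasone libraries on average, and the strand setting of the counting is not given in the sources used here. Lrp2, an endocytic co-receptor, had a mean of 27.0 normalized counts in the control and 20.6 in the dexamethasone libraries (limma log2 fold change -0.41, adjusted p = 0.224).

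**Figure D2:**
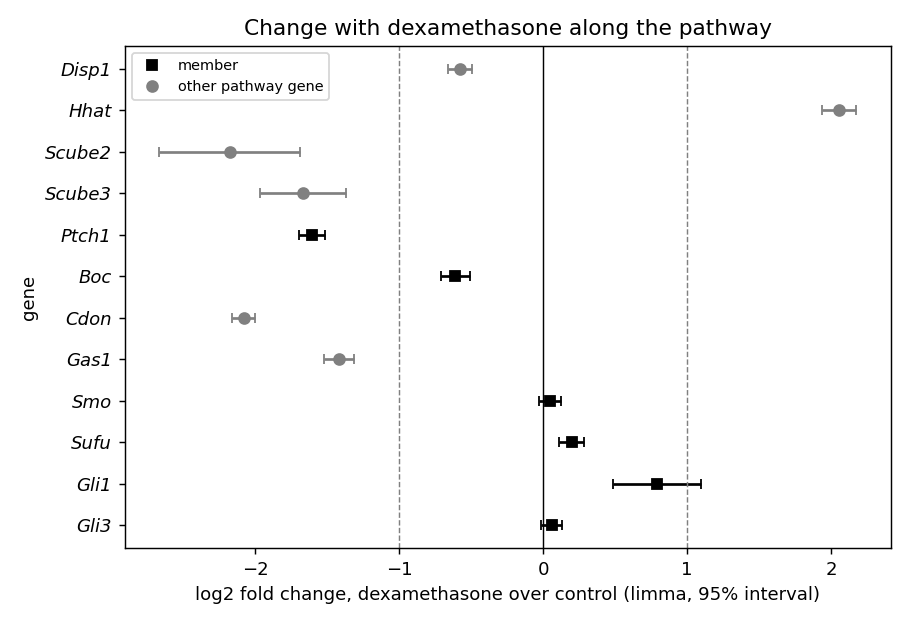
Log2 fold changes of dexamethasone over control from limma, with 95% intervals (bars) and dashed lines at the fold required for a call. Squares are the 6 tested genes. Circles are 6 other pathway genes, the co-receptors Cdon and Gas1, and Disp1, Hhat, Scube2 and Scube3 from the list of ligands and their release. Ptch1, Cdon and Gas1 lie to the left of -1 and Boc between -1 and 0, Sufu and Gli1 lie to the right of 0, and the intervals of Smo and Gli3 include 0, with both below 0 after scaling to the same total or quantile normalization.

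Smo encodes Smoothened, the membrane protein that passes the signal inward. It had 14851, 16075 and 15553 normalized counts in the control libraries and 16650.3, 15457 and 15967 in the dexamethasone libraries, so the groups overlapped. Its log2 fold change was 0.05 (95% interval -0.03 to 0.13, limma adjusted p = 0.256), and it turned to -0.07 with equal library totals (limma adjusted p = 0.0329) and to -0.17 with quantile normalization (limma adjusted p = 7.44e-06), lower by the test under both scalings. Rescaling to the same total moved the median of all tested genes to -0.11, since the summed normalized counts differed between the groups.

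Sufu encodes the cytoplasmic inhibitor that binds Gli proteins. It had 3337, 3342 and 3525 normalized counts in the control libraries and 4147, 3739.9 and 3833 in the dexamethasone libraries, without overlap. The mean rose from 3401 ± 107 (SD, n = 3) to 3906 ± 213 (SD, n = 3), or 0.20 on the log2 scale (standard error 0.0427, 95% interval 0.11 to 0.29, limma adjusted p = 0.000208). This small rise was 0.05 after quantile normalization (limma adjusted p = 0.207) and then did not pass.

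Gli1 is a transcriptional activator whose own transcription is a common readout of Hedgehog signalling, and it was the least abundant of the tested genes. It had 78.0, 95.9 and 73.8 normalized counts in the control libraries and 155, 143 and 131 in the dexamethasone libraries, so that every dexamethasone library was above every control library. The mean rose from 82.6 ± 11.7 (SD, n = 3) to 143 ± 12.1 (SD, n = 3), or 0.79 on the log2 scale (standard error 0.147, 95% interval 0.49 to 1.10, limma adjusted p = 3.71e-05), under the fold required for a call. On the opposite strand Arhgap9 and Gm47200 overlap 6.55% of the exon bases of Gli1, and Arhgap9 had 5.11 normalized counts in the control and 10.1 in the dexamethasone libraries on average.

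Gli2, which carries most of the activating function in many tissues, had 4, 0 and 2 reads in the control and 1, 0 and 0 reads in the dexamethasone libraries. No difference in Gli2 was detectable at this depth. Gli3, the main source of Gli repressor, had 8066, 8318 and 8041 normalized counts in the control libraries and 8733, 8471 and 8237 in the dexamethasone libraries, which overlapped. Its log2 fold change was 0.06 (95% interval -0.02 to 0.13, limma adjusted p = 0.144), and it turned to -0.06 with equal totals (limma adjusted p = 0.0852) and to -0.15 with quantile normalization, where it passed as lower (limma adjusted p = 5.74e-05).

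Per kilobase of exon, the 9 transcripts spanned a wide range of levels in both groups. In the control libraries Smo was highest at 2756 ± 109 (SD, n = 3) normalized counts per kilobase, followed by Gli3 at 849 ± 16.0, Boc at 565 ± 21.3, Sufu at 442 ± 13.9 and Ptch1 at 363 ± 11.3. Gli1 followed at 16.5 ± 2.35 and Ihh at 3.18 ± 1.39, and Gli2 and Hhip were the lowest. With dexamethasone Smo (2851 ± 107 normalized counts per kilobase) and Gli3 (884 ± 25.9) were still the highest, Sufu (508 ± 27.7) stood above Boc (371 ± 19.6), and Ptch1 was at 119 ± 6.75. The ranges of neighbours in this order did not overlap in either group, except for those of Gli2 and Hhip.

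Ratios of genes within a library do not depend on any scaling that multiplies all genes of the library by the same factor. Quantile normalization is not of that kind, and the ratios were not computed after it. The ratio of Ptch1 to Smo was 33.6%, 33.1% and 33.0% in the control libraries and 10.5%, 11.4% and 9.91% in the dexamethasone libraries. Boc stood at 17.0%, 16.2% and 15.5% of Smo in the control and at 10.5%, 10.2% and 10.2% in the dexamethasone libraries. Both receptor genes thus fell relative to the transducer in each dexamethasone library. The ratio of Gli1 to Ptch1, which are both targets of Gli proteins, went from 1.56%, 1.80% and 1.44% to 8.93%, 8.14% and 8.30%, a difference of 2.41 (standard error 0.103) on the log2 scale. Gli1 also rose relative to Gli3, from 0.967%, 1.15% and 0.918% to 1.78%, 1.69% and 1.60%. The ratio of Gli3 to Smo was 54.3%, 51.7% and 51.7% in the control and 52.4%, 54.8% and 51.6% in the dexamethasone libraries, with overlap. Of 9 such ratios, 8 separated the groups at the smallest p that 3 libraries against 3 allow (exact permutation test, two-sided, p = 0.1 each, Benjamini-Hochberg adjusted 0.113), and Gli3 over Smo did not (exact p = 0.7). The ratios share genes already described as changed, and 74.7% of all tested genes had groups without overlap. No share was computed for other pairs of genes.

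**Figure D3:**
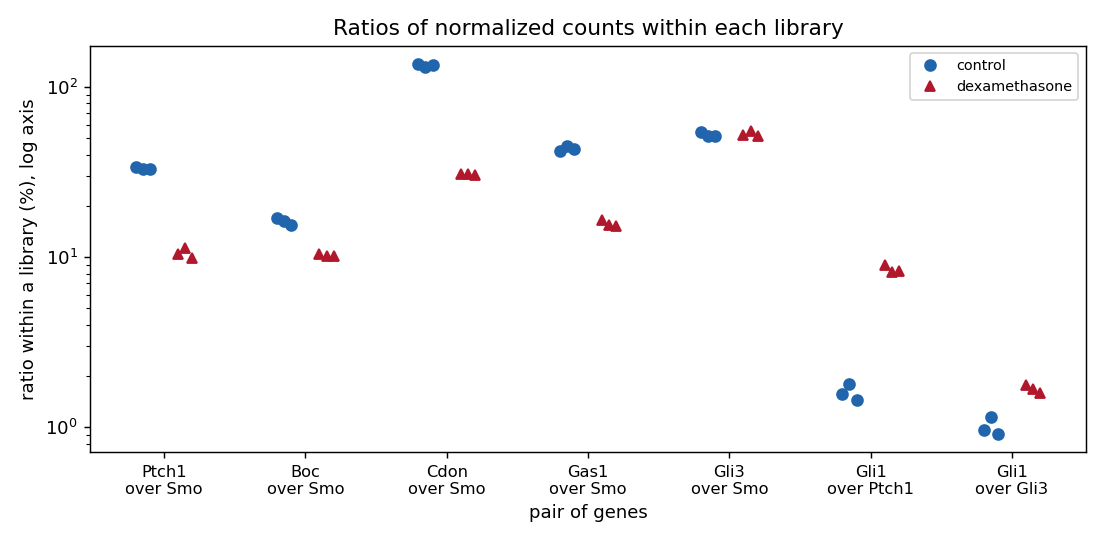
Ratio of 2 genes' normalized counts within a library, in percent on a log axis, for 7 pairs, with circles for the 3 control and triangles for the 3 dexamethasone libraries. Ptch1, Boc, Cdon and Gas1 over Smo are lower and Gli1 over Ptch1 and over Gli3 are higher in every dexamethasone library, and Gli3 over Smo overlaps.

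Around these 9 genes, 79 further genes of the pathway were examined, of which 77 were listed and 69 tested. Of the 69, 4 were called higher and 9 lower, beside 11.7% and 10.6% of all tested genes. By adjusted p alone 25 were higher and 34 lower, beside 37.2% and 35.2% of all tested genes, and 10 did not pass, with a median log2 fold change of -0.16. Among the genes for the ligands and their release, 2 of 5 tested genes were called higher and 2 lower. Hhat, the enzyme that attaches palmitate to the ligands, rose from a normalized count of 544 ± 28.8 (SD, n = 3) to 2264 ± 109 (SD, n = 3), or 2.06 on the log2 scale (limma adjusted p = 1.32e-20). Disp1, the transporter that releases the ligands from the producing cell, fell from 7077 ± 318 (SD, n = 3) to 4741 ± 219 (SD, n = 3), or -0.58 on the log2 scale (limma adjusted p = 4.05e-12). The secreted carriers Scube2 (log2 fold change -2.18) and Scube3 (-1.67) were called lower at low levels, and Scube1, named after its values were seen, was called higher from 3.46 to 24.8 normalized counts. Of the 3 tested genes among the other receptors and co-receptors, 0 were called higher and 2 lower, Cdon and Gas1.

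In the list of signal transduction and Gli processing, 1 of 23 tested genes was called higher and 1 lower, beside 11.7% and 10.6% of all tested genes. By adjusted p alone 13 were higher and 6 lower, beside 37.2% and 35.2%, and the median log2 fold change was 0.20. Of its most abundant genes, Prkar1a, the regulatory subunit of protein kinase A, had a log2 fold change of -0.08 (adjusted p = 0.0565 by limma), and the kinase gene Csnk1a1 one of -0.05 (limma adjusted p = 0.172). The kinase gene Gsk3b fell by 0.18 on the log2 scale (limma adjusted p = 7.53e-05), and Spop, the adaptor that delivers Gli proteins for degradation, rose by 0.59 (limma adjusted p = 1.06e-12). The 2 called genes, named after their values were seen, were Arrb2 (beta-arrestin 2, log2 fold change 1.04) and the kinase gene Stk36 (-1.13). Arrb2 fell under the fold required for a call at 0.92 with equal library totals, 0.94 with quantile normalization, and 0.99 without control library 1 or without dexamethasone library 1.

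In the primary cilium list 2 of 26 tested genes were called lower and 0 higher, beside 10.6% and 11.7% of all tested genes. By adjusted p alone 18 were lower and 5 higher, beside 35.2% and 37.2% of all tested genes, and the median log2 fold change was -0.34. Rpgrip1l, a protein of the transition zone at the base of the cilium, fell from a normalized count of 7103 ± 179.7 (SD, n = 3) to 2363 ± 73.7 (SD, n = 3) (log2 fold change -1.59, limma adjusted p = 1.17e-21). Of the 10 tested Ift genes, which encode the intraflagellar transport particles, 8 were lower by adjusted p alone, with log2 fold changes between -0.71 and -0.32, 1 did not pass, and Ift140 was higher at 0.53. The motor-associated gene Kifap3 had a log2 fold change of -0.62. That of the motor gene Kif3b was -0.09 (limma adjusted p = 0.0477), which passed the adjusted p threshold in 9 of 17 alternatives. Bbs1, named after its values were seen, was the other called gene (-1.07).

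Among 18 Gli target genes 12 were tested, 1 of them called higher and 2 lower, beside 11.7% and 10.6% of all tested genes. By adjusted p alone 5 were higher and 5 lower, beside 37.2% and 35.2%, and the median log2 fold change was -0.08. The cyclin genes Ccnd1 and Ccnd2 had log2 fold changes of 0.55 and -0.16, and those of Cdk6 and Rab34 were 0.16 and 0.21, which turned to -0.06 and -0.0045 after quantile normalization. The 3 called genes, named after their values were seen, were Foxl1, a forkhead factor (28.1 to 207 normalized counts), Bmp4, a bone morphogenetic protein (5876 to 686), and Pth1r, the receptor for parathyroid hormone and its related peptide (6005 to 1309.8).

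**Figure D4:**
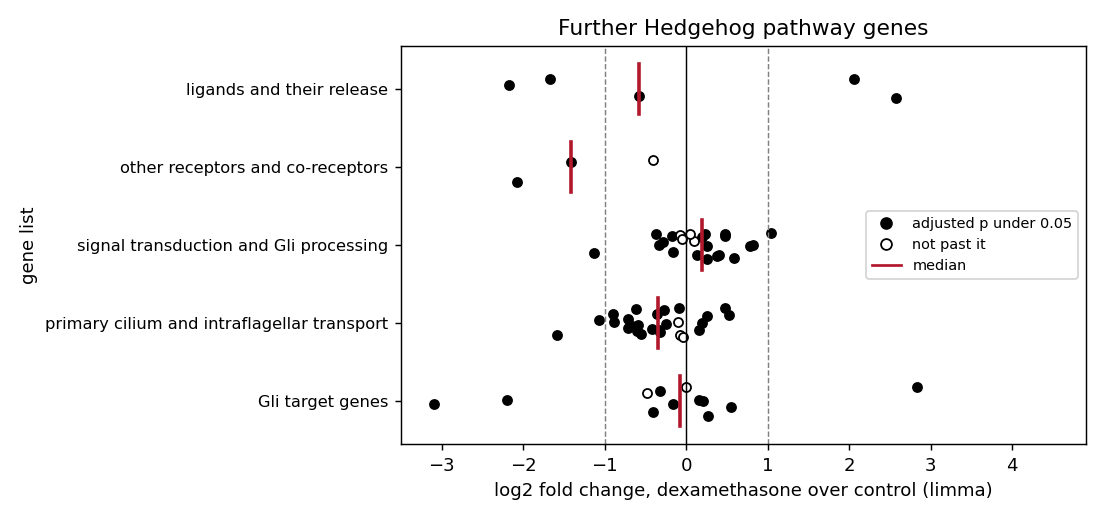
Log2 fold changes (horizontal axis) of the 69 tested further pathway genes by list, filled where the limma adjusted p was under 0.05 and open otherwise, with a bar at each list's median and dashed lines at the fold required for a call. The receptor and cilium medians lie to the left of 0 at -1.42 and -0.34, and the signal transduction median lies to the right at 0.20.

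The reads recovered over the listed genes came to 72596611 to 89910728 per library. Replicates differed by more than the sampling noise (chi-square per degree of freedom from 3.52 to 29.6 for pairs within a group). Of 11 osteoblast markers, 8 were called lower with dexamethasone and 2 higher, Spp1 (means of 33595 and 1279674 normalized counts) and Dmp1 (38.5 and 5639). Of all tested genes, 10.6% were called lower and 11.7% higher. A gene of the sort marker Osteocalcin, Bglap, had 98.2 to 122 normalized counts in the control and 9.54 to 15.1 in the dexamethasone libraries, beside means of 961923 and 261192 for Col1a1. Bglap2 of the same list was also called lower. With a list median of -1.75 on the log2 scale, the summed osteoblast markers, Spp1 included, ranged from 2009100 to 2137793 in the control and from 2010803 to 2142748 in the dexamethasone libraries. Of 12 chondrocyte markers, 4 were tested, Col2a1 and Sox9 were called higher and Hapln1 lower, and the list summed to 7087 to 7528 normalized counts in the control and 22732 to 25558 in the dexamethasone libraries, with Col9a1, Matn1 and Ucma at or under 3 reads in each library. The 12 proliferation genes were called higher without exception, with sums of 47719 to 51176 and 275486 to 293155. The part of these markers in the changes of Ptch1, Boc, Gli1 and Sufu was not tested.

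Marker lists of other cell types were counted in the same way, beside 11.7% of all tested genes called higher and 10.6% lower. Each list held only a few tested genes or none. The smooth muscle and pericyte list had 1 of 5 tested genes called lower (Acta2) and 0 higher, and by adjusted p alone 1 was higher and 2 lower. Its median log2 fold change was 0.06, while its sum went from between 148092 and 155942 to between 21898 and 23354 normalized counts. The fibroblast and periosteal list had 1 of 4 called higher and 1 lower (98565 to 103079 in the control, 120259 to 124655 with dexamethasone), and the marrow stroma list 2 of 4 higher and 1 lower (21864 to 23619, and 29728 to 29926). The hematopoietic list had 2 of 5 called higher and 2 lower, and by adjusted p alone 2 were higher and 3 lower. Its log2 fold changes ran from -1.77 to 4.11 with a median of -0.67, so its sum does not describe the list as a whole. Its sums were 149 to 169 and 803 to 851, with Ly6g at or under 3 reads. The endothelial list had 1 of 4 called higher and 0 lower, with sums of 382 to 411 and 462 to 510.3 and Cdh5 at or under 3 reads. Erythroid markers summed to at most 49.1 normalized counts with 0 of 1 tested gene called, and adipocyte markers to at most 9.18 with 0 tested.

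Across 17 alternatives of scaling, filter, pseudocount, model and left-out library, Ptch1 had log2 fold changes between -1.78 and -1.56, Boc between -0.76 and -0.58 and Gli1 between 0.68 and 0.90, and each kept its direction and its side of the adjusted p threshold. The size of the adjusted p depended on the model. In limma without a trend of the variance with level it was 8.00e-06 for Ptch1, 0.000271 for Boc and 0.00217 for Gli1.

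**Figure D5:**
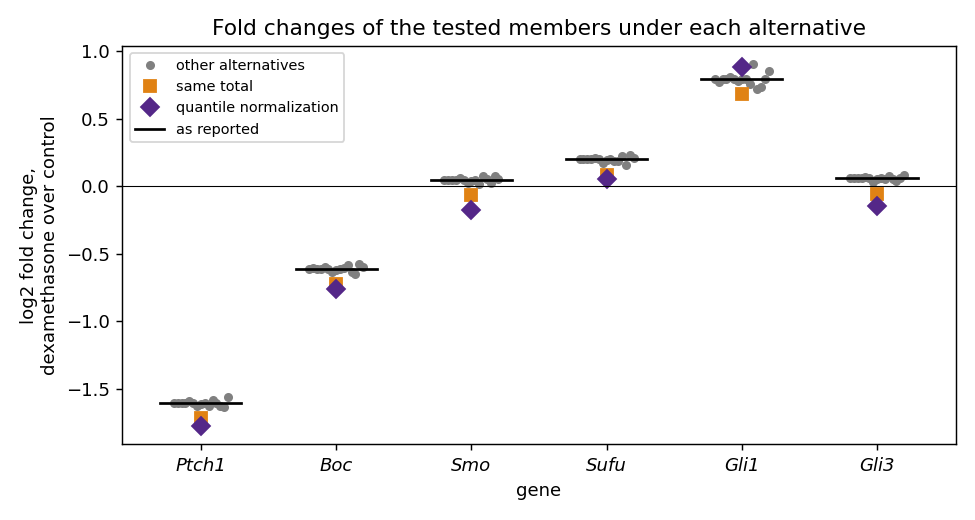
Log2 fold change of each tested gene as reported (line) and under 17 alternatives (points), with rescaling to the same total (squares) and quantile normalization (diamonds) set apart. Ptch1 and Boc stay below 0 and Gli1 and Sufu above 0, and Smo and Gli3 turn below 0 under those 2 scalings.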

How the data were processed

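The labels gave 3 control and 3 dexamethasone libraries of RNA sequencing. Per the submitters' processing notes, the authors used STAR 2.7.10a, DESeq2 1.36.0 and GRCm39, and they deposited a signal per gene, which is the read count divided by a library size factor. Strand setting and annotation release are not given in the sources used here. Each deposited value was a whole multiple of 1 read (tolerance 0.01, 100% of values), so reads were recovered. GENCODE M21 and RefSeq tables of GRCm38.p6 gave symbols (28087 of 29616 genes), exon lengths, overlaps and promoters.

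Genes averaging at least 10 normalized counts were compared as log2(normalized count + 1) with limma 3.58.1 in R 4.3.3, with Benjamini-Hochberg adjustment over 17442 genes, and fold changes are on that scale, which understates those of low genes. edgeR 4.0.16 and DESeq2 1.42.0 on recovered reads were alternatives, beside other pseudocounts, filters and scalings, a replicate block and leaving out each library. In simulated data of this design (16985 genes, 191 changed) limma recovered 189 with 2 false calls. In the libraries themselves 12645 of 17442 tested genes passed the adjusted p threshold and 3894 were called. Recovery with so many genes differing was not tested. Limits of 3 reads and intervals (95%) cover counting error or library spread only. The genes and lists (5 pathway lists, 10 marker lists) were chosen with earlier results of these data known. Named were the 9 genes, the 4 most abundant tested genes of each pathway list, ligand and receptor genes, and called genes said to be chosen after their values were seen, and a listed gene is not reported here. Same-numbered libraries did not deviate together (correlations -0.0999, -0.105 and -0.0199), so no block was used.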

Additional observations from a re-analysis of the deposited data

How the results depend on the processing

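Over the alternatives, 417 values of 25 single genes kept their direction and their side of the threshold for a call (adjusted p and fold), and 6 changed direction. The 25 were the tested Hedgehog genes and the named genes chosen by level or role. Called genes named after their values were seen, such as Arrb2, were not among them. Crossing the adjusted p threshold alone was not counted. At the same total, the log2 fold change of Smo was -0.0653 (limma adjusted p = 0.0329) and that of Gli3 -0.0555. After quantile normalization, Smo was at -0.173 (limma adjusted p = 7.44e-06), Gli3 at -0.149 (limma adjusted p = 5.74e-05), Cdk6 at -0.0615 and Rab34 at -0.0045. Rescaling to the same total multiplies every gene of a library by the same factor, and the median of all tested genes went to -0.11. Under quantile normalization that median went to -0.07, and the cause of the changes of direction there was not tested. With a mean of at least 100, which leaves fewer genes tested, 1350 genes were called higher and 820 lower. By adjusted p alone the counts were 6497 and 6148 for all genes, 2 and 2 for the 6 Hedgehog genes and 25 and 34 for the further pathway genes. With the replicate number as a block, 2035 genes were called higher and 1862 lower, Ptch1 was still the 1 Hedgehog gene called, and no other call among these genes changed. Leaving out each library in turn left 0 Hedgehog genes called higher and 1 lower, and 3 to 4 of the further pathway genes called higher and 9 lower. Over the other alternatives with the same call rule, 3 to 4 further genes were called higher and 8 to 10 lower. Arrb2 was the higher call lost at the same total and under quantile normalization, and Tmem67 was added as lower at the same total. Ihh, Hhip and Gli2 were under the mean minimum, and with no filter their limma adjusted p-values were 0.878, 0.411 and 0.298.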
